A study of Mus musculus with 8 samples.

Results

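The genes described here are 10 transcripts that mark blood vessels in tumors: the endothelial junction and surface genes Pecam1, Cdh5, Emcn and Cd34, the VEGF receptors Kdr and Flt1, the Tie receptors Tek and Tie1, the TGF-beta co-receptor Eng, and the clotting factor Vwf. They were given as a list of symbols and found through the Ensembl identifiers of the deposited count tables. All 10 were found among 25006 identifiers, and all 10 passed the low-count filter that kept 15310 genes. The study grew derivatives of 4T1, a mammary carcinoma line of Balb/c mice labelled as triple-negative breast cancer, in the fat pad of mice for up to 20 days and sequenced the tumor RNA. Its stated comparison is of tumors with and without CD95, the death receptor encoded by Fas, in NSG mice, which have no mature T, B or NK cells, and in immunocompetent Balb/c mice.

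There were 4 groups of 2 libraries. NSG wild type and Balb/c wild type each comprised a tumor library of the parental 4T1 line and one of a 4T1 line stably expressing vCas9. NSG knockout and Balb/c knockout each comprised a library of CD95/Fas knockout clone 54 and one of clone 69, both made with CRISPR/Cas9. Every tumor therefore came from a 4T1 derivative implanted in the fat pad, and the same 4 lines were grown in both hosts. The libraries of a group are different lines, a knockout line is 1 clone, and the labels do not say whether a library held 1 tumor or several, nor the age or sex of the mice. The p-values measure the spread between these libraries only, and clonality and knockout cannot be told apart.

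Blood vessels are lined by endothelial cells, which sprout toward tissue that secretes VEGF-A. Kdr (VEGFR2) transmits most of that signal, and Flt1 (VEGFR1) binds the same ligand with weak signaling and limits its access to Kdr. The Tie pathway then stabilizes the vessel: Tek (Tie2) is the receptor for the angiopoietins, and Tie1 is a related receptor that modulates Tek. In a tumor the vessels are of host origin, so these transcripts come mainly from mouse stroma and not from the carcinoma cells, although Pecam1 is also made by leukocytes and platelets, Cd34 by stromal fibroblasts, mast cells and progenitors, Vwf by megakaryocytes, Flt1 and Tek by some monocytes and macrophages, and Eng by activated fibroblasts and macrophages. In bulk RNA, fewer endothelial cells and less RNA per endothelial cell cannot be told apart.

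Because the receptors of both angiogenic pathways are compared below, the 250 bases upstream of the RefSeq start sites of the 4 tyrosine kinase receptor genes are shown as RefSeq promoter sequence of build GRCm38.p6. Capitals mark GGAA or its reverse complement TTCC, the core letters recognized by ETS factors, a family with members used broadly in endothelial genes. Kdr lies on the minus strand at chr5:75978456-75978705, Flt1 on the minus strand at chr5:147726012-147726261, Tek on the plus strand at chr4:94739039-94739288 and Tie1 on the minus strand at chr4:118489850-118490099. Most of the Tie1 window lies inside the longest GENCODE model of that gene, which starts further upstream than the RefSeq entry.
Kdr: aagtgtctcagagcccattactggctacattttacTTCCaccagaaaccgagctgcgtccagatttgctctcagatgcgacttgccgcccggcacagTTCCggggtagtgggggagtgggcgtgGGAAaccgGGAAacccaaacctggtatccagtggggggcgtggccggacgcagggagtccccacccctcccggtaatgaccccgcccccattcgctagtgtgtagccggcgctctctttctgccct
Flt1: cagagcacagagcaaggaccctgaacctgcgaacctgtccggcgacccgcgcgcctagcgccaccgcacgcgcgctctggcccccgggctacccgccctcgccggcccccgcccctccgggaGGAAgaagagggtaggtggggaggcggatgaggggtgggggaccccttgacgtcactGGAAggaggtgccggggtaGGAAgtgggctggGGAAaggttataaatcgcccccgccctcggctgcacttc
Tek: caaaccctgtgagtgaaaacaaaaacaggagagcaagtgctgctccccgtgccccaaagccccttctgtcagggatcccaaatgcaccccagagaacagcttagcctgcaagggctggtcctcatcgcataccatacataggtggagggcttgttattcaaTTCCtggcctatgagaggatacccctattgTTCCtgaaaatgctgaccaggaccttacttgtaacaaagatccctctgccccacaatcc
Tie1: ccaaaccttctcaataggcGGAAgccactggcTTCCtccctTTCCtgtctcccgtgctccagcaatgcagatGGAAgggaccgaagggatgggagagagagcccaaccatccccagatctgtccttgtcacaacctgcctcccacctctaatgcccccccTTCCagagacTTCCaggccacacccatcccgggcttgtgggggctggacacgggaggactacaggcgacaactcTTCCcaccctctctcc

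A promoter entry was matched for 7 of the 10 genes, and not for Pecam1, Cdh5 and Vwf. GGAA on either strand occurred 4 times in Kdr, 4 times in Flt1, 2 times in Tek and 7 times in Tie1, and at least 2 times in each of the 7. These 4 letters occur in 93.4% of 32851 promoter windows of the same length, with a median of 3 per window. The longer CAGGAA, which contains GGAA, was found in 4 of the 7 windows (Cd34, Emcn, Tek and Tie1) and in 25.7% of all windows. CCGGAA, which also contains GGAA, was found in 1 of 7 (Kdr) and 12.0% of all windows. GGGCGG was found in Kdr and Flt1 and in 32.7% of all windows, TATAAA in Flt1 and in 12.4% of all windows, and ACGTG in 0 of 7 and 16.6% of all windows, all counted on both strands. The share of G and C was 70.4% for Flt1, 62.4% for Eng, 61.6% for Kdr, 60.4% for Tie1, 51.2% for Tek, 46.4% for Cd34 and 40.8% for Emcn.

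Library totals ranged from 8.68 M to 19.7 M counts, and the CPM that 3 counts represent ranged from 0.159 to 0.321. CPM is a count divided by the TMM-scaled library total, per 1000000 counts. Fas, the targeted gene, was read in all libraries, at 22.6 to 51.6 CPM in those labelled wild type and 12.9 to 33.7 CPM in those labelled knockout, so that the knockout status rests on the labels. Markers of the carcinoma cells were present throughout: 10 epithelial genes summed to 772 CPM in the Balb/c clone 54 library and 4369 CPM in that of clone 69, with the other libraries between them. Members had at least 37 counts and at most 5183 counts in any library. Per kilobase of annotated exon, averaged over the libraries, Pecam1 was the highest of the 10 at 24.8 CPM per kb, followed by Cd34 (22.4), Cdh5 (17.5), Eng (15.3), Flt1 (5.58), Tek (5.13), Tie1 (4.31), Kdr (4.13), Emcn (2.31) and Vwf (2.08).

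By group mean, 8 of the 10 genes were lowest in Balb/c wild-type tumors, the exceptions being Pecam1 (NSG knockout) and Cd34 (Balb/c knockout). The lowest of the 8 libraries was Balb/c wild type of the parental line for 7 genes, and the highest was NSG knockout clone 69 for 7 genes. Summed over the 10 genes, the level from lowest to highest was 399 ± 46.7 CPM for Balb/c wild type, 614 ± 168 CPM for NSG wild type, 776 ± 134 CPM for Balb/c knockout and 837 ± 114 CPM for NSG knockout (SD, n = 2 each). The single libraries were 366 and 432 CPM in Balb/c wild type, 495 and 732 in NSG wild type, 681 and 871 in Balb/c knockout, and 756 and 918 in NSG knockout. The Balb/c wild-type libraries lay below all others, whereas Balb/c knockout overlapped both of its neighbours in that order.

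**Figure D1:**
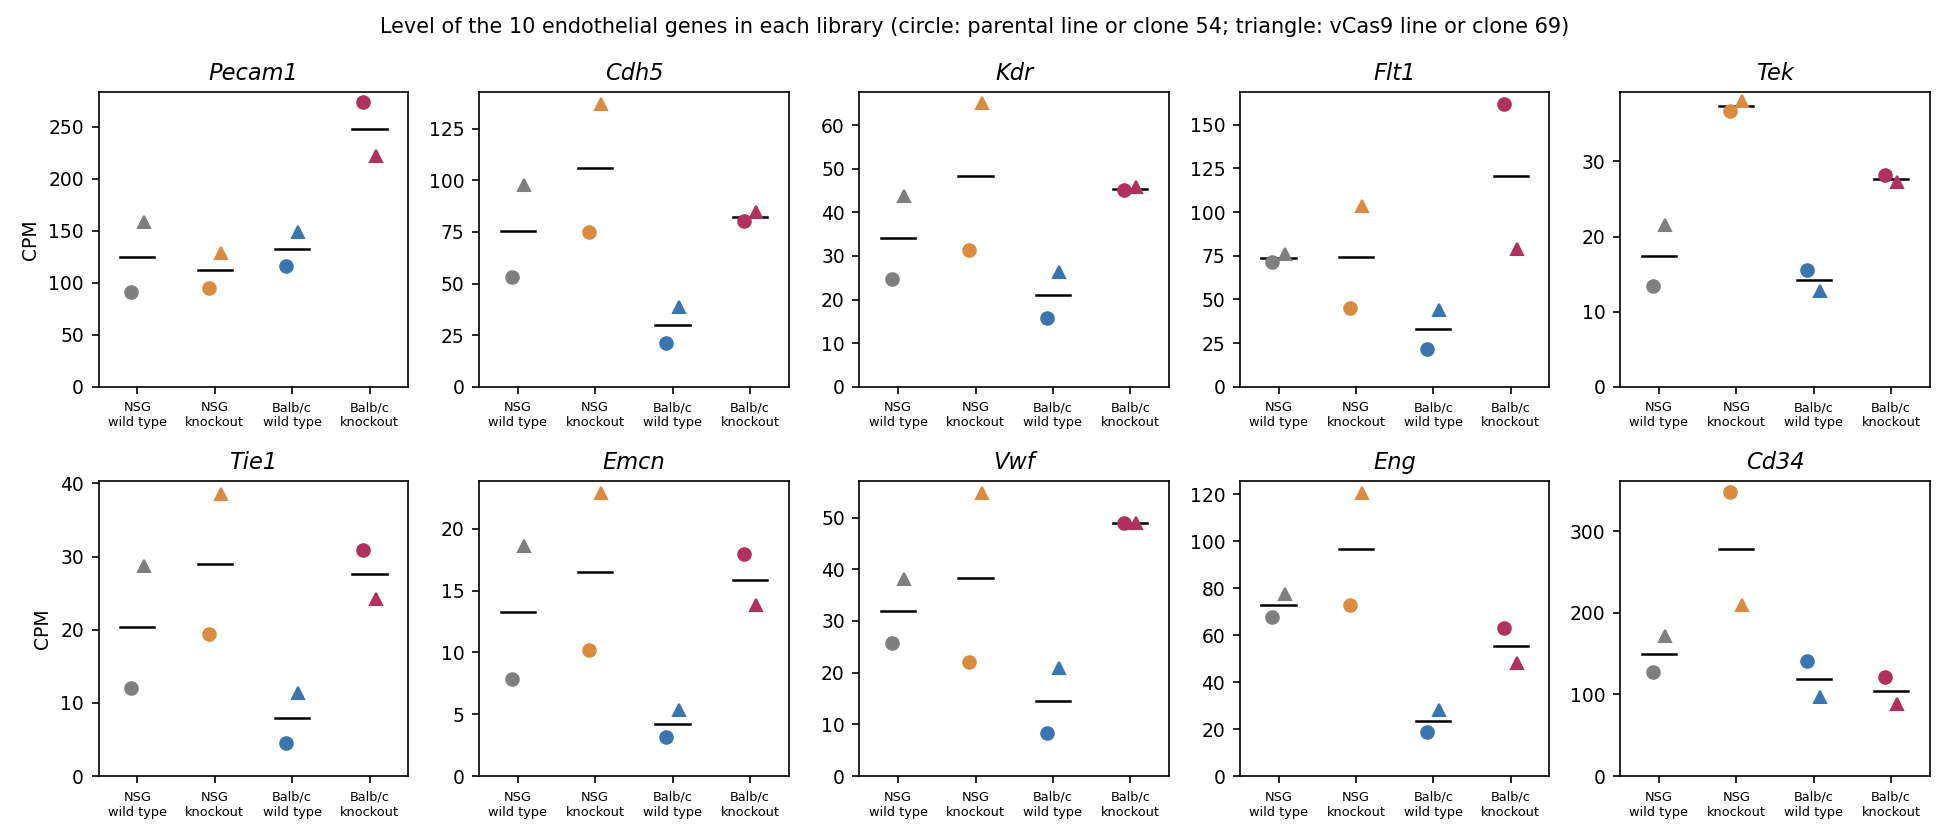
CPM (linear axis from 0) of each of the 10 genes in the 8 libraries, by group; circles are the parental line or clone 54, triangles the vCas9 line or clone 69, and the horizontal line is the mean of the 2 libraries. Cdh5, Eng and Emcn sit lowest in Balb/c wild type, Pecam1 is highest in Balb/c knockout at 274 and 221 CPM, and Cd34 is highest in NSG knockout at 348 and 209 CPM.

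Cdh5 encodes VE-cadherin, the adhesion molecule of endothelial junctions and the member most restricted to endothelium. It lies on chromosome 8 (104101625 to 104144511, GRCm38). Its level was 53.2 and 97.9 CPM in NSG wild type, 75.1 and 137 CPM in NSG knockout, 21.2 and 38.7 CPM in Balb/c wild type, and 80.4 and 84.5 CPM in Balb/c knockout. Both Balb/c wild-type libraries lay below the other 6.

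Emcn, a sialomucin of venous and capillary endothelium (chromosome 3, 137341067 to 137432185), repeated that order at a lower level. The libraries were at 7.90 and 18.6 CPM in NSG wild type, 10.2 and 22.9 CPM in NSG knockout, 3.14 and 5.34 CPM in Balb/c wild type, and 17.9 and 13.9 CPM in Balb/c knockout. Again the Balb/c wild-type libraries were below all others.

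Pecam1 (CD31), a junctional immunoglobulin-family molecule (chromosome 11, 106654217 to 106750628), had a different pattern. It was at 91.4 and 158 CPM in NSG wild type, 95.0 and 129 CPM in NSG knockout, 116 and 149 CPM in Balb/c wild type, and 274 and 221 CPM in Balb/c knockout. The first 3 groups overlapped, and both Balb/c knockout libraries lay above them. Per exon length, Pecam1 relative to Cdh5 was 1.12 in NSG wild type and 0.712 in NSG knockout but 2.99 in Balb/c wild type and 2.03 in Balb/c knockout, as ratios of group means.

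Cd34, a surface sialomucin (chromosome 1, 194938819 to 194961279), was at 128 and 172 CPM in NSG wild type, 348 and 209 CPM in NSG knockout, 142 and 96.3 CPM in Balb/c wild type, and 121 and 88.0 CPM in Balb/c knockout. NSG knockout stood above the rest, and the Balb/c groups overlapped. An antisense transcript, Gm16897, overlaps Cd34 exons with at most 40 counts in a library. The deposited tables state no strand setting, so reads of the overlap are uncertain.

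The VEGF receptor genes lie on the same chromosome, Kdr at 75932827 to 75978458 and Flt1 at 147561604 to 147726011 of chromosome 5. Kdr was at 24.7 and 43.7 CPM in NSG wild type, 31.5 and 65.1 CPM in NSG knockout, 15.9 and 26.3 CPM in Balb/c wild type, and 45.1 and 45.7 CPM in Balb/c knockout. Flt1 was at 71.4 and 76.0 CPM in NSG wild type, 45.3 and 103 CPM in NSG knockout, 21.7 and 43.9 CPM in Balb/c wild type, and 162 and 79.1 CPM in Balb/c knockout. For both genes the Balb/c wild-type and knockout libraries did not overlap, and the 2 knockout clones were nearly equal for Kdr in Balb/c but 2.04-fold apart for Flt1. Per exon length, the Flt1 to Kdr ratio lay between 0.915 and 1.93 in 7 libraries and was 2.4 in the Balb/c clone 54 library. That library also had the highest sum of 10 macrophage genes, at 11490 CPM, against 5208 CPM for clone 69 in Balb/c and 3244 to 5133 CPM in the other 6. All 10 macrophage genes were read in the data, and their part in the Flt1 level was not tested.

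Tek (chromosome 4, 94739289 to 94874976) was at 13.4 and 21.5 CPM in NSG wild type and 36.7 and 37.99 CPM in NSG knockout. In Balb/c it was at 15.5 and 12.8 CPM in wild type and 28.1 and 27.3 CPM in knockout. Tek was the member with knockout libraries above wild-type libraries in both hosts, which no other gene of the 10 showed. Tie1 (chromosome 4, 118471191 to 118490061) was at 11.98 and 28.7 CPM in NSG wild type, 19.4 and 38.6 CPM in NSG knockout, 4.50 and 11.4 CPM in Balb/c wild type, and 31.0 and 24.2 CPM in Balb/c knockout. Tie1 levels of the NSG groups overlapped, while in Balb/c the knockout libraries were both higher.

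Eng, or endoglin, which assists ALK1 signaling in endothelium (chromosome 2, 32646595 to 32682669), had the smallest adjusted p-value of the 10 genes in the host comparison of wild-type tumors. It was at 67.8 and 77.5 CPM in NSG wild type, 72.8 and 121 CPM in NSG knockout, 18.6 and 28.0 CPM in Balb/c wild type, and 63.1 and 48.1 CPM in Balb/c knockout. All 4 Balb/c libraries were below all 4 NSG libraries. The 3' end of Eng overlaps an exon of Fpgs on the opposite strand, which had at most 243 counts in a library. Vwf, which carries platelets to damaged vessel walls (chromosome 6, 125546774 to 125686679), was at 25.7 and 38.2 CPM in NSG wild type, 22.04 and 54.7 CPM in NSG knockout, 8.24 and 20.9 CPM in Balb/c wild type, and 48.9 and 49.0 CPM in Balb/c knockout. Its Balb/c wild-type libraries were the lowest of all.

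In Balb/c tumors, 9 of the 10 endothelial genes had a higher estimate in the libraries labelled knockout than in wild type, and none passed the threshold. The largest estimates were 3.73-fold for Emcn, 3.66-fold for Flt1, 3.45-fold for Tie1 and 3.34-fold for Vwf, and Cd34 was the exception. Single libraries moved these estimates and their order: with 1 of the 4 Balb/c libraries left out, the log2 fold change ran from 1.58 (without the parental line) to 2.26 (without the vCas9 line) for Emcn, from 1.28 to 2.54 for Tie1 and from 1.23 to 2.49 for Vwf without the same lines. For Flt1 it ran from 1.16 without clone 54 to 2.40 without the vCas9 line. The edgeR quasi-likelihood test with Benjamini-Hochberg adjustment called 0 of the 10 at an adjusted p-value under 0.05, and 0.176% of all genes tested. In these 9 genes both knockout libraries lay above both wild-type libraries, as in 32.9% of all genes. The unadjusted p-value was under 0.05 for the same 9, against 16.6% of all genes that were higher at that level. The median log2 fold change of the 10 was 1.36, and that of all genes tested was 0.06.

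In order of role, the log2 fold changes between knockout and wild type in Balb/c were 1.46 for Cdh5 (SE 0.41, edgeR adjusted p-value 0.0716), 1.90 for Emcn (SE 0.53, adjusted p-value 0.071) and 0.90 for Pecam1 (SE 0.29, adjusted p-value 0.0931). Of the VEGF receptors, Flt1 was at 1.87 (SE 0.50, edgeR adjusted p-value 0.0669) and Kdr at 1.11 (SE 0.41, adjusted p-value 0.118). Of the Tie receptors, Tie1 was at 1.79 (SE 0.56, edgeR adjusted p-value 0.0865) and Tek at 0.97 (SE 0.24, adjusted p-value 0.0625). Eng was at 1.25 (SE 0.30, edgeR adjusted p-value 0.0597), Vwf at 1.74 (SE 0.51, adjusted p-value 0.0781) and Cd34 at -0.19 (SE 0.31, adjusted p-value 0.709). Of the 10 genes, 8 had an adjusted p-value under 0.10, which Kdr and Cd34 did not, against 18.5% of all genes. DESeq2 called 7 of the 10 and 2144 of all genes, and edgeR without the low-count filter 7 and 1774, in each case Cdh5, Flt1, Tek, Tie1, Emcn, Vwf and Eng. Without the clone 69 library edgeR called 4 of the 10 and 3886 of all genes, where the fit with all libraries called 27.

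**Figure D2:**
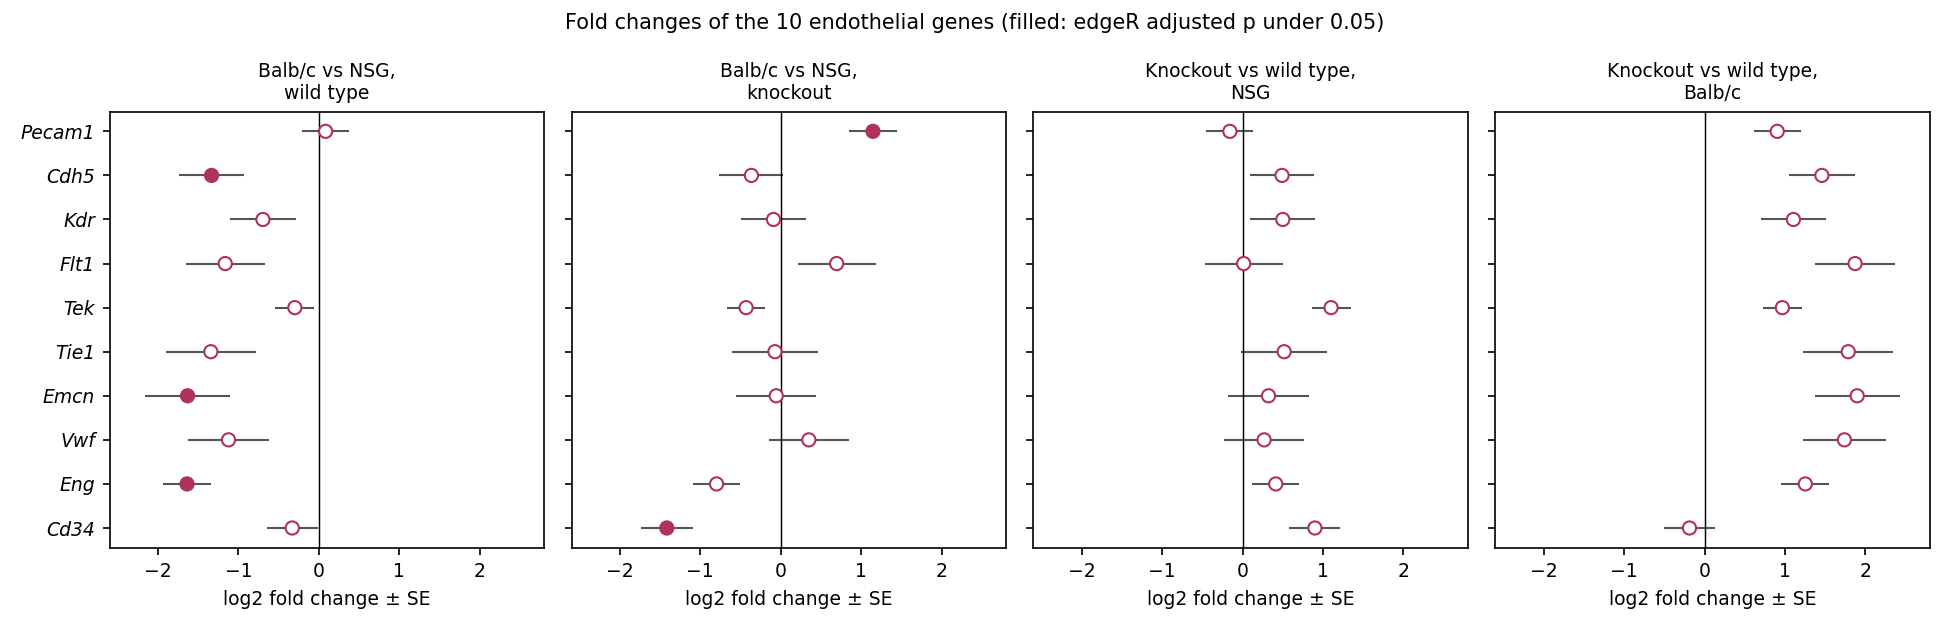
Log2 fold change (horizontal axis, with standard error) of each of the 10 genes in 4 comparisons; filled points have an edgeR adjusted p-value under 0.05. Filled points are Cdh5, Emcn and Eng below 0 in the host comparison of wild-type tumors, and Pecam1 above and Cd34 below 0 in that of knockout tumors; in the Balb/c knockout comparison 9 open points lie above 0.

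In NSG tumors the endothelial genes were not called different between knockout and wild type. edgeR called 0 of the 10, against 0.0131% of all genes. At an unadjusted p-value under 0.05 there were 2, Tek and Cd34, where 14.0% of all genes reached that level. DESeq2 called 1 of the 10, Tek (adjusted p-value 0.0203), and 340 of all genes. Tek was at 1.10 on the log2 scale (SE 0.24, edgeR adjusted p-value 0.194) and Cd34 at 0.90 (SE 0.32, adjusted p-value 0.296), and these were the 2 genes whose knockout libraries lay above the wild-type libraries, as in 26.7% of all genes. The other 8 ranged from -0.16 for Pecam1 to 0.52 for Tie1. The median of the 10 was 0.45 and that of all genes 0.01. Without clone 69 the log2 fold changes of Flt1 and Vwf were -0.71 and -0.54, since the 2 clones differed in NSG by 2.29-fold for Flt1 and 2.48-fold for Vwf.

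Whether the knockout effect on these genes depended on the host was examined by subtracting the NSG from the Balb/c log2 fold change in the same edgeR fit. No member passed in edgeR, where 0% of all genes did. At an unadjusted p-value under 0.05 there were 3, where 22.5% of all genes reached that level. DESeq2 called 0 of the 10 and 974 of all genes. The largest difference was that of Flt1, 1.86 (SE 0.69, edgeR adjusted p-value 0.175), more positive in Balb/c, which ran from 1.14 without Balb/c clone 54 to 2.59 without NSG clone 69 when single libraries were left out. Emcn was at 1.58 (edgeR adjusted p-value 0.245), Vwf at 1.47 (0.261), Tie1 at 1.27 (0.357), Cdh5 at 0.97 (0.342), Eng at 0.84 (0.267) and Kdr at 0.61 (0.556). Pecam1 and Cd34, which with Flt1 reached the unadjusted level, were at 1.06 (SE 0.41, edgeR adjusted p-value 0.188) and -1.09 (SE 0.45, adjusted p-value 0.204). Tek, at -0.13 (SE 0.34, edgeR adjusted p-value 0.845), was nearest to 0. The difference was above 0 for 8 of the 10 and for 51.5% of all genes, with medians of 1.015 and 0.03. With the clones crossed as a block, a pairing chosen after seeing the data, Flt1 passed (1.97, edgeR adjusted p-value 0.0431) among 307 genes called.

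The host comparison asked how tumors of the same lines differ between Balb/c and NSG mice. These hosts differ in strain as well as in immune status, and the design cannot tell strain and immune status apart. In wild-type tumors, 3 of the 10 genes fell in Balb/c relative to NSG and 0 rose, where edgeR called 31.5% of all genes, 15.3% higher and 16.2% lower. Eng fell by 1.64 on the log2 scale (SE 0.30, edgeR adjusted p-value 0.008), Emcn by 1.63 (SE 0.53, adjusted p-value 0.0493) and Cdh5 by 1.33 (SE 0.41, adjusted p-value 0.041), which is 3.11-fold, 3.10-fold and 2.52-fold. Estimates that did not pass were -1.34 for Tie1 (edgeR adjusted p-value 0.0978), -1.16 for Flt1 (0.103), -1.12 for Vwf (0.123) and -0.69 for Kdr (0.216). Tek at -0.30, Cd34 at -0.33 and Pecam1 at 0.09 were the closest to 0. In 6 genes both Balb/c libraries were below both NSG libraries, as in 41.0% of all genes, and the median of the 10 was -1.14 against -0.08 for all genes. This comparison and the knockout comparison in Balb/c share the 2 Balb/c wild-type libraries.

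Only Eng kept its call with RLE size factors, where Cdh5 was at -1.24 (edgeR adjusted p-value 0.0501) and Emcn at -1.54 (0.0587). In a fit of only these 4 libraries the 3 passed and so did Flt1 (-1.09, adjusted p-value 0.029), among 6838 genes called. With lines treated as a replicate block, Cdh5 and Eng passed and Emcn did not (log2 fold change -1.58, edgeR adjusted p-value 0.067), and the block reduced the genes called among all from 4825 to 2073. Cdh5 and Emcn failed to pass when any 1 of the 4 libraries was left out, with estimates from -1.77 to -0.84 for Cdh5 and from -2.13 to -0.90 for Emcn. The smallest estimates and the highest adjusted p-values, 0.229 and 0.288, were those without the vCas9 line in NSG, and the estimates were larger than with all libraries without the parental line in NSG (-1.72 and -2.13) or the vCas9 line in Balb/c (-1.77 and -2.003). Eng missed the threshold without the vCas9 line in NSG (0.0536) or without the parental line in Balb/c (0.0599).

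In knockout tumors edgeR called 2 of the 10 genes between hosts, against 31.1% of all genes (15.7% higher and 15.4% lower). The calls on the 10 genes, 1 higher and 1 lower, were thus no more frequent than among all genes. Pecam1 rose in Balb/c by 1.15 on the log2 scale (SE 0.30, edgeR adjusted p-value 0.0222), or 2.22-fold, and Cd34 fell by 1.42 (SE 0.32, adjusted p-value 0.0134), or 2.67-fold. Eng, which fell in wild-type tumors, was at -0.80 (SE 0.29, edgeR adjusted p-value 0.0719). It passed under total-count scaling (0.0447), without the filter (0.0426), without NSG knockout clone 54 (0.0352) and with the clones crossed as a block (0.0167), and its adjusted p-value ranged up to 0.408 in the other alternatives. The other 7 ranged from -0.43 for Tek to 0.70 for Flt1. The median of the 10 was -0.08 and that of all genes 0.02. Pecam1 missed the threshold without NSG knockout clone 54 (adjusted p-value 0.113), NSG clone 69 (0.0517) or Balb/c clone 54 (0.073), and Cd34 without NSG clone 54 (0.0666) or Balb/c clone 69 (0.0503). Under total-count scaling the Pecam1 estimate was 0.94 with an adjusted p-value of 0.053.

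Markers of other cells that make Pecam1 and Cd34 were compared between the same groups. The 5 pan-leukocyte genes, all read in every library, summed to 1119 to 1783 CPM over the 4 NSG libraries and 4136 to 4781 CPM over the 4 Balb/c libraries; in Balb/c relative to NSG, 4 of 5 rose in wild-type and 5 of 5 in knockout tumors, with Ptprc (CD45) at a log2 fold change of 2.21 and 1.97. The 10 platelet and megakaryocyte genes summed to 102 to 127 CPM in NSG wild type and 31.4 and 36.9 in NSG knockout. In Balb/c they summed to 57.6 and 73.1 in wild type and 86.3 and 93.7 in knockout. Of 7 tested, 1 rose and 1 fell in wild-type and 1 rose in knockout tumors, each near the share of all genes. Pf4 was called in both, in opposite directions (log2 fold change -1.28 in wild type and 1.91 in knockout). The 10 fibroblast genes summed to 18190 and 26730 CPM in NSG wild type, 35330 and 30730 in NSG knockout, 13770 and 9325 in Balb/c wild type, and 11940 and 4362 in Balb/c knockout. In Balb/c relative to NSG, 0 of 10 fibroblast genes passed in wild-type tumors and 9 of 10 fell in knockout tumors. Beside these lists, 15.3% of all genes rose and 16.2% fell in wild-type tumors, and 15.7% rose and 15.4% fell in knockout tumors. The part of these cells in the levels of Pecam1 and Cd34 was not tested.

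The genes did not keep fixed proportions. Each gene was expressed in log2 CPM relative to the mean of the 10 in the same library, a measure that scaling between libraries does not touch. Over the 8 libraries this relative level moved least for Kdr, by 0.45, and for Cdh5, by 0.67, and most for Pecam1, by 1.87, and Cd34, by 2.17. Eng was 0.72 above the 10-gene mean in NSG wild type and 0.67 above it in NSG knockout, but 0.01 above it in Balb/c wild type and 0.04 below it in Balb/c knockout, so that its relative level was lower in all 4 Balb/c libraries. Tek was 0.24 below the mean in the Balb/c parental library, whereas it was 1.12 below it in the Balb/c vCas9 library.

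**Figure D3:**
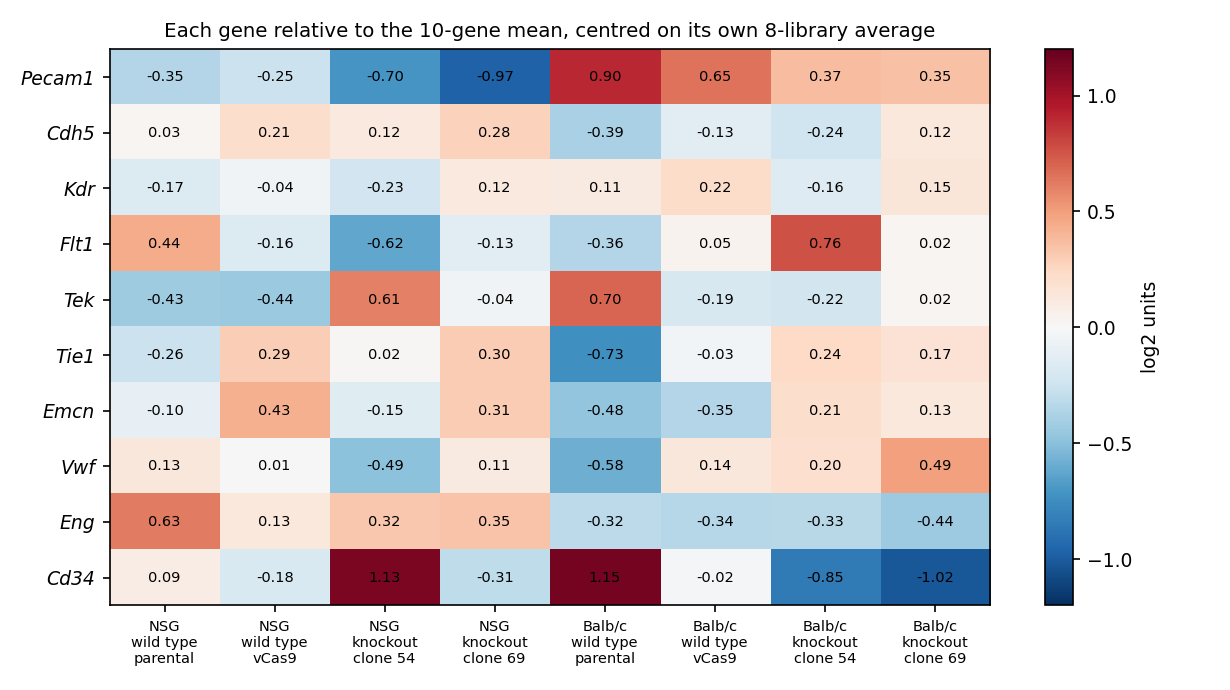
Level of each gene relative to the mean of the 10 genes in the same library, in log2 units and centred on the gene's average over the 8 libraries; red is above and blue below that average. Kdr stays within 0.23 of its average, Pecam1 runs from -0.97 in NSG knockout clone 69 to 0.90 in the Balb/c parental library, and Cd34 from -1.02 to 1.15.

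Vegfa, the main ligand of Kdr and Flt1, was at 597 and 729 CPM in NSG wild type, 273 and 260 CPM in NSG knockout, 621 and 809 CPM in Balb/c wild type, and 565 and 738 CPM in Balb/c knockout. The NSG knockout libraries had the lowest Vegfa, and in knockout tumors Vegfa rose in Balb/c by 1.29 on the log2 scale (SE 0.24, edgeR adjusted p-value 0.00598). Its knockout log2 fold change was -1.31 in NSG (adjusted p-value 0.141) and -0.13 in Balb/c (0.718). Pgf, a ligand of Flt1 only, fell in Balb/c wild-type tumors by 1.29 on the log2 scale (edgeR adjusted p-value 0.0274), from 38.4 and 69.1 CPM to 20.0 and 23.9 CPM. Angpt2, the angiopoietin that destabilizes vessels, fell by 1.35 (SE 0.36, edgeR adjusted p-value 0.027) in the same comparison, and Angpt1, which activates Tek, was at -1.46 (SE 0.54, adjusted p-value 0.0708). Per exon length Angpt2 exceeded Angpt1 by 2.66 to 5.77 times in every library. Of the 14 ligand genes listed, 12 were tested; in Balb/c relative to NSG, 5 fell in wild-type tumors, and 1 rose and 3 fell in knockout tumors, with Apln lower in both at -2.44 and -2.93. Of all genes, 16.2% fell in wild-type tumors, and 15.7% rose and 15.4% fell in knockout tumors. For the knockout, 0 ligand genes passed in either host, with 4 of 12 at an unadjusted edgeR p-value under 0.05 in each host, where 14.0% of all genes reached that level in NSG and 30.9% in Balb/c, and the median log2 fold change in Balb/c was 0.02.

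Of 24 other pan-endothelial genes, all tested, 22 had a higher estimate in Balb/c knockout than in Balb/c wild type, 19 without overlap of the libraries (32.9% of all genes), with a median log2 fold change of 1.57. None passed in edgeR, and 13 were higher at an unadjusted p-value under 0.05 (16.6% of all genes). Plvap, which forms the diaphragms of fenestrated capillaries, had the largest of the estimates at 2.72 (SE 0.49, edgeR adjusted p-value 0.0564), from 7.73 and 11.02 CPM to 82.2 and 41.5 CPM. In wild-type tumors Plvap fell in Balb/c by 2.48 (edgeR adjusted p-value 0.0103). It was 1 of 5 pan-endothelial genes of 24 that fell, where 16.2% of all genes did, and the median of the 24 was -0.98. In knockout tumors 1 rose and 1 fell, where 15.7% of all genes rose and 15.4% fell, and the median was 0.03. Not every gene of the list had that pattern. Fli1, an ETS factor that leukocytes also make, rose in Balb/c in both wild-type (log2 fold change 1.23) and knockout tumors (1.62), and Cd93 fell in both (-1.70 and -0.86).

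Among 14 other angiogenesis and guidance receptors, 11 had a higher estimate in Balb/c knockout than wild type, none passed in edgeR, 8 were higher at an unadjusted p-value under 0.05 (16.6% of all genes), and the median was 0.98. In Balb/c relative to NSG, 1 rose and 5 fell in wild-type tumors (15.3% and 16.2% of all genes) and 2 fell in knockout tumors (15.4%). Unc5b, a netrin receptor of sprouting endothelium, fell in both, by 2.48 and 3.48 on the log2 scale, with a range of 67.1 to 155 CPM over NSG and 9.70 to 17.7 CPM over Balb/c tumors. Flt4, the third VEGF receptor and mainly lymphatic in the adult, fell in both as well (-2.24, edgeR adjusted p-value 0.0435, and -2.08, adjusted p-value 0.0454) at 0.934 to 19.4 CPM. Of the 2 genes with the highest mean CPM in this list, both semaphorin receptors, Nrp2 fell in wild-type tumors by 1.18 and Plxnd1 was at -0.84 (edgeR adjusted p-value 0.195). S1pr1, which lymphocytes also express, rose in wild-type tumors, where the Balb/c parental library was at 186 CPM and the vCas9 library at 48.4 CPM. Of 13 Notch and tip or stalk cell genes, 1 rose (Notch1, 2.46) and 4 fell in wild-type tumors, and 1 rose (Notch1, 1.57) and 2 fell in knockout tumors, the last near the 15.4% of all genes that fell there; none passed for the knockout, with medians of 0.73 in NSG and 0.79 in Balb/c.

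Pericytes are contractile cells that wrap capillaries. Of 11 pericyte and mural cell genes, 7 fell in Balb/c in wild-type tumors (16.2% of all genes) and 4 in knockout tumors (15.4%), none rose, and the medians were -1.51 and -0.99. Acta2 fell by 1.97 in wild-type tumors and Kcnj8 by 2.67 in knockout tumors. None passed for the knockout, a comparison with few calls among all genes in either host, where the median was 0.53 in Balb/c and 0.27 in NSG. Rgs5 had 19.6 and 46.3 CPM in Balb/c wild type and 164 and 74.8 CPM in Balb/c knockout (log2 fold change 1.86, edgeR adjusted p-value 0.0834). Erythroid transcripts, a sign of blood in the tissue, did not run parallel to the vessel genes: the 7 genes summed to 332 CPM in the Balb/c clone 54 library, 1573 CPM in that of clone 69, and 1165 to 3481 CPM in the other 6.

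**Figure D4:**
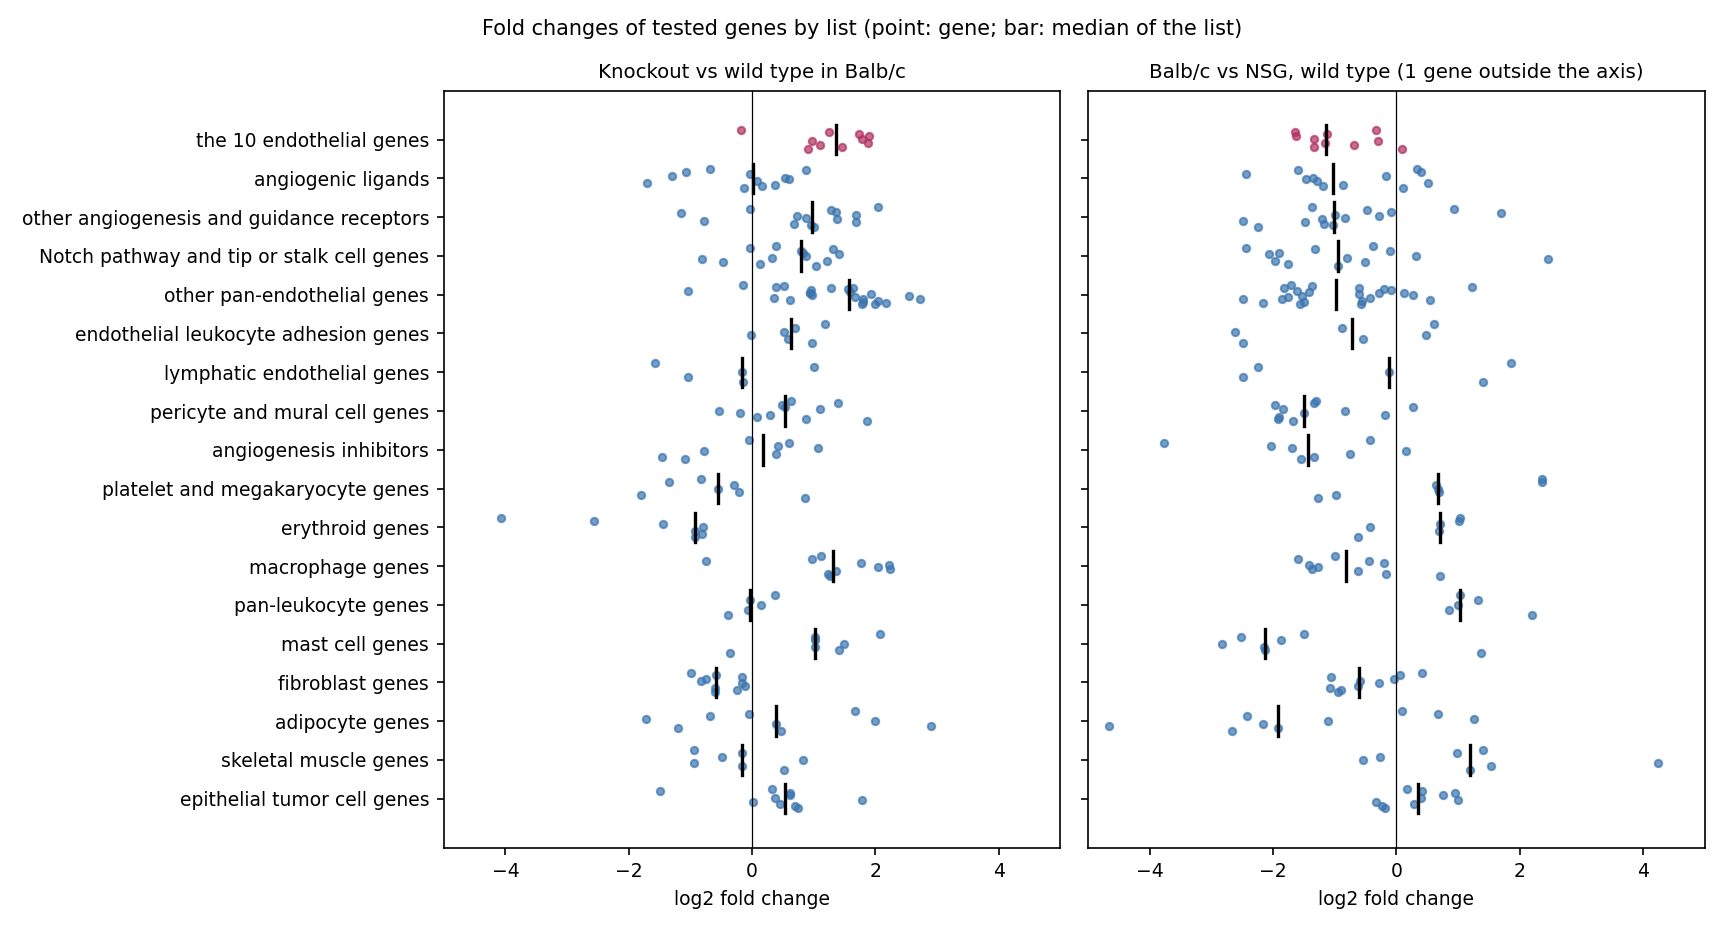
Log2 fold change of every tested gene (points) and the median (bars) of the 10 endothelial genes and 17 other lists, for knockout against wild type in Balb/c (left) and Balb/c against NSG in wild-type tumors (right, where 1 erythroid gene lies outside the axis). The medians of the 10 endothelial genes are 1.36 and -1.14, those of the other pan-endothelial genes 1.57 and -0.98, and those of the pan-leukocyte genes -0.03 and 1.03.

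Of 10 macrophage genes, none passed for the knockout in Balb/c. At an unadjusted edgeR p-value under 0.05, 9 had a higher estimate, against 16.6% of all genes, and Cd14, named here after its values were seen, had a lower one (-0.75) without overlap; the median log2 fold change was 1.31; in Balb/c relative to NSG, 1 rose and 2 fell in wild-type tumors, near the 15.3% and 16.2% of all genes, and 7 rose in knockout tumors, where 15.7% of all genes did. In NSG, all 10 macrophage genes had a lower estimate in knockout, with a median of -0.86, where that of the 10 endothelial genes was 0.45. Within the pair of Balb/c knockout libraries the macrophage sum differed 11490 against 5208 CPM. Of the 10 endothelial genes, clone 54 exceeded clone 69 by 2.04-fold for Flt1 and by 1.24-fold to 1.37-fold for Pecam1, Tie1, Emcn, Eng and Cd34, and Cdh5, Kdr, Tek and Vwf differed by at most 1.05-fold. The part of macrophages in these levels was not tested.

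Likeness to the 10 genes was measured as the root mean square difference, over the 8 libraries, between a gene's centred log2 CPM and the mean centred profile of the 10, among 11430 other genes with a mean of at least 5 CPM. Their median difference was 0.72 log2 units. The nearest was Sparcl1 at 0.13, a matrix-associated protein of the SPARC family, at 69.0 and 136 CPM in NSG wild type, 120 and 170 in NSG knockout, 45.1 and 58.4 in Balb/c wild type, and 155 and 130 in Balb/c knockout. It was followed by Fam78b (0.15), the receptor phosphatase Ptprm (0.17), the exchange factor Fgd5 (0.20), Agfg2 (0.20), Btbd3 (0.20), Prex2 (0.21), Ccdc191 (0.23), the collagen-binding integrin Itga1 (0.23) and Rilpl1 (0.24). Among the members themselves, Kdr (0.16) and Cdh5 (0.22) were nearest to the mean profile, which contains them, and Pecam1 (0.63) and Cd34 (0.75) were farthest.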

How the data were processed

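RNA was sequenced from 8 tumor libraries, and the deposited values are raw counts per Ensembl gene in 1 table per library. Per the submitters' processing notes, the tools were cutadapt 1.13, STAR, HTSeq 0.6.1p1 and DESeq2 and the builds mm10 and hg19, given without role or order. The strand setting and the annotation are not given in the sources used here. Symbols were found for 24942 of 25006 identifiers, and positions and exon lengths come from GENCODE M21 on GRCm38, which may not be the authors' annotation.

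Counts were fitted in R 4.3.3 with edgeR 4.0.16 (TMM, filterByExpr, glmQLFit, glmQLFTest) as 4 group means over all 8 libraries, leaving 4 residual degrees of freedom, with Benjamini-Hochberg adjustment over 15310 genes and a threshold of 0.05. Standard errors were taken from the fold change and the F statistic, and log2 CPM used a prior count of 2. The procedure was tested on simulated data. The members and the 17 other gene lists were chosen with earlier results of these data known. All 10 members were tested in every comparison, and some are given only within a range. Of each other list, the 2 genes with the highest mean CPM and, per comparison and direction, the largest change past the threshold without overlap could be named, besides Vegfa, Pgf, Angpt1, Angpt2, Flt4 and Fas. Lists are described by counts and medians without a set test. Alternatives were other scalings, no filter, DESeq2 1.42.0, fits of only the libraries compared, each library left out, and the cell line as a block. Lines pair libraries across hosts by the titles. Differences between the 2 lines correlated between hosts across genes with r of 0.0875 for wild-type lines and -0.353 for knockout clones. Counting floors of 3 counts cover counting error only, since no molecular identifiers are stated.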

Additional observations from a re-analysis of the deposited data

How the results depend on the processing

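With lines treated as a replicate block, 2073 genes passed for the host in wild-type tumors and 2878 in knockout tumors, and of the calls on the 10 genes only that of Emcn in wild-type tumors was lost. A crossed pairing of the clones, chosen after seeing the data, gave 4 members and 5436 genes for the host in knockout tumors, and 1 member (Flt1) and 307 genes for the difference between hosts. Scaling by total counts moved the median of all genes for the host to -0.24 in wild-type and -0.17 in knockout tumors and the calls to 1905 higher and 3315 lower, and 1756 higher and 2951 lower, against 2344 and 2481, and 2403 and 2354. RLE factors left 1 member for the host in wild-type tumors and gave 94 genes for the knockout in Balb/c. Without the filter, 133 genes passed for the knockout in NSG, 1774 genes and 7 members in Balb/c, and 674 genes for the difference. DESeq2 gave 340 genes and 1 member, 2144 genes and 7 members, and 974 genes for the same 3. Fits of only the libraries compared gave 6838 genes and 4 members (Flt1 added) for the host in wild-type tumors, 2450 genes for the host in knockout tumors, 1 for the knockout in NSG and 0 in Balb/c. The causes were not tested.

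With each library left out in turn, calls ranged from 858 to 1482 genes and 0 to 1 members for the host in wild-type tumors, 2461 to 4640 genes and 1 member in knockout tumors, 0 genes for the knockout in NSG, 0 to 3886 genes and 0 to 4 members in Balb/c (the highest without clone 69), and 0 to 2370 genes for the difference between hosts (again without Balb/c clone 69). A lone library is then assumed to vary like the other groups. Signs turned only for estimates that had not passed. For the host in wild-type tumors these were Pecam1 (-0.27 to 0.52; -0.077 by total counts) and Tek (-0.61 to 0.071). In knockout tumors they were Cdh5 (-0.73 to 0.13), Kdr (-0.52 to 0.53; 0.001 with the replicate block), Tie1 (-0.48 to 0.51), Emcn (-0.52 to 0.64; 0.04 with the block, 0.03 crossed) and Vwf (-0.16 to 1.15). For the knockout in NSG they were Pecam1 (-0.51 to 0.29), Cdh5 (-0.01 to 0.99), Kdr (-0.12 to 0.96), Flt1 (-0.71 to 0.49; -0.006 by RLE and by DESeq2), Tie1 (-0.069 to 1.27), Emcn (-0.38 to 1.06), Vwf (-0.54 to 0.77) and Eng (-0.001 to 0.73). In Balb/c it was Cd34 (-0.54 to 0.12), and for the difference Tek (-0.50 to 0.18). Of 530 alternative values for the members, 454 kept direction and side of the threshold.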

Other observations

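Of 8 angiogenesis inhibitors tested, 5 fell in Balb/c in wild-type tumors, where 16.2% of all genes did, and 3 in knockout tumors, where 15.4% did, and none rose, with medians of -1.44 and -0.82. Col18a1, whose collagen releases endostatin, fell by 3.76 and 3.12 on the log2 scale. Thbs2 fell by 1.33 and 3.26, and Thbs1, a thrombospondin that restrains endothelial growth, by 1.54 in wild-type tumors. Thbs1 was at 4916 and 5821 CPM in NSG wild type and 1393 and 1420 CPM in NSG knockout. It did not pass (log2 fold change -1.93, edgeR adjusted p-value 0.192), and no inhibitor passed for the knockout in either host. At an unadjusted edgeR p-value under 0.05 there was 1 of 8 in NSG, near the 14.0% of all genes at that level. In Balb/c there were 3 of 8, near the 30.9% of all genes. Of 6 adhesion genes tested, 2 fell in wild-type tumors, with Vcam1 at -2.62, and none passed in knockout tumors, where Icam1 was at 0.80. Of 5 lymphatic genes tested, 2 fell in each host comparison, Lyve1 by 2.50 in both, whereas Pdpn was at -0.12 and 0.22.

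Beside the following lists, 15.3% of all genes rose and 16.2% fell in wild-type tumors, and 15.7% rose and 15.4% fell in knockout tumors. Of 7 mast cell genes, 1 rose (Kit, 1.37) and 5 fell (Tpsb2 by 2.83) in Balb/c wild-type tumors, and 4 fell in Balb/c knockout tumors. For the knockout in Balb/c none of the 7 passed, 6 had a higher and 1 a lower estimate, and the median was 1.03. The 6 were higher without overlap of the libraries (32.9% of all genes), and 5 were higher at an unadjusted edgeR p-value under 0.05 (16.6% of all genes). Of 9 adipocyte genes, 3 fell in wild-type and 5 in knockout tumors, while Fabp4, which endothelium and macrophages also make, had 34.3 and 81.4 CPM in Balb/c wild type and 198 and 263 CPM in Balb/c knockout (log2 fold change 1.99, edgeR adjusted p-value 0.0564). Of 7 skeletal muscle genes none passed in any comparison, with 1 at an unadjusted edgeR p-value under 0.05 for the host in wild-type tumors. In that comparison 7005 of the 15310 genes tested reached the same unadjusted level. Of 10 epithelial genes, 1 (Krt14, -2.35) fell in Balb/c knockout tumors relative to NSG knockout, and Krt8 was at 156 CPM in the Balb/c clone 54 library and 1283 CPM in that of clone 69. Of 7 erythroid genes, 1 rose in wild-type tumors, and 1 rose and 4 fell in knockout tumors. The gene that rose was Hba-a2, by 10.54 on the log2 scale in wild-type and 8.78 in knockout tumors. It has a near-identical copy in Hba-a1, so its counts are uncertain, and the cause of its host difference was not tested.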
